A study of Mus musculus with 6 samples.

Results

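The myelin genes described here are Mbp, Mog, Mag, Cnp, Mobp, Cldn11 and Ugt8a, 7 of the 31245 genes in the deposited table, chosen by name for their place in the myelin sheath. All 7 were found once each by symbol, and all 7 passed the minimum mean of 10 normalized counts that 16653 genes passed. The RNA was from primary neuronal cultures of mouse cortex, taken from newborn pups (postnatal day 1) and kept in vitro for 12 to 13 days. 3 vehicle cultures received PBS and 3 received NGPF2 at 1.5 ng/ml, each for 2 h, and no strain, genotype or sex is given in the labels. Per the series text the cultures form 3 pairs, 1 per experiment, taken here to be the cultures that carry the same replicate number. Replicates 2 and 3 share a stem in their library names that replicate 1 lacks in both groups, so values are given by pair and by these 2 library batches.

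Myelin is the layered membrane that oligodendrocytes wrap around axons. Compaction of the layers depends on membrane proteins and on basic proteins that hold the cytoplasmic faces together, while adhesion proteins, tight junctions and galactolipids stabilise the sheath and its contact with the axon. These genes are switched on late, when a precursor becomes a myelinating oligodendrocyte, under transcription factors such as Olig2, Sox10 and Myrf. A culture of dissociated cortex is mostly neurons and astrocytes, with precursors and few mature oligodendrocytes. In such bulk RNA, fewer cells of a type and less RNA per cell cannot be told apart.

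Total counts ran from 17478070 to 45193691 per library, with NGPF2 3 the shallowest. Neuron markers dominated in every library, with 12 listed genes summing to 259213 to 403322 normalized counts, that is, reads per gene over a size factor for each library. In replicates 2 and 3 the libraries of the groups differed far more than in replicate 1. Astrocyte markers (14 genes) summed to 93301 and 84141 normalized counts in vehicle 2 and 3, to only 27477 and 23879 in NGPF2 2 and 3, and to 37704 and 40960 in vehicle 1 and NGPF2 1. The 12 precursor markers summed to 10365 and 9849 in vehicle 2 and 3, to 3516 and 3593 in NGPF2 2 and 3, and to 9498 and 9749 in replicate 1. The part of these differences in the results below was not tested.

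Markers that define mature or newly formed oligodendrocytes were at or near 0 although the myelin genes were measured. Opalin, a myelin membrane protein of mature oligodendrocytes, was at 0 in 4 of 6 libraries and at most 5.98 normalized counts. Enpp6, a phosphodiesterase of newly formed oligodendrocytes, ran from 0 to 8.37, and Gpr17, a receptor of committed precursors, from 0 to 9.67, with 0 in both NGPF2 2 and NGPF2 3. Aspa, the aspartoacylase of oligodendrocytes, ran from 1.93 to 14.3. The lineage factors Sox10 and Myrf were low, at 5.38 to 21.4 and 5.38 to 51.2, whereas Olig1 ran from 1033 to 6065. The 9 Schwann cell markers in the table summed to 1642 to 2368 normalized counts. Among them Drp2, a protein of the dystrophin family, ran from 1068 to 1528, the transcription factor Egr2 from 178 to 276, and the lipid-binding protein Pmp2 from 0 to 1.29, with 0 in 5 of 6 libraries.

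Levels of different genes were set side by side per exon length, as reads per kilobase of merged exons scaled to the total of the library (RPKM). Cnp and Mbp led. Cnp, a phosphodiesterase of uncompacted myelin that is already made by precursors (ENSMUSG00000006782, mm10, chromosome 11, 100574904 to 100591729), stood at 6.22, 8.80 and 8.71 RPKM in vehicle 1, 2 and 3, and at 5.41, 3.78 and 2.99 in NGPF2 1, 2 and 3. Mbp, the basic protein that joins the cytoplasmic faces (ENSMUSG00000041607, chromosome 18, 82475146 to 82585637), stood at 2.92, 5.01 and 3.27 and at 3.00, 2.97 and 3.07. The locus of Mbp also makes golli transcripts, found in neurons and other cells, which a count per gene does not separate. The merged exons of all annotated transcripts cover 8469 bases for Mbp and 3639 for Cnp, and a longer length gives a lower RPKM. By normalized counts alone Mbp was above Cnp in every library except vehicle 3. The order of these 2 genes and their shares below thus depend on the lengths used.

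The other members lay lower, with Ugt8a, the galactosyltransferase that makes the cerebrosides of myelin (ENSMUSG00000032854, chromosome 3, 125865271 to 125938619), at a mean of 1.11 RPKM over the 6 libraries. Mog, an immunoglobulin-fold protein of the outer myelin surface (ENSMUSG00000076439, chromosome 17, 37010743 to 37023398), averaged 0.765. Cldn11, the tight junction claudin of myelin (ENSMUSG00000037625, chromosome 3, 31149920 to 31164324), averaged 0.660. Mobp, a second basic protein of compact myelin (ENSMUSG00000032517, chromosome 9, 120149707 to 120181484), averaged 0.546. Mag, the sialic acid-binding adhesion protein of the layer next to the axon (ENSMUSG00000036634, chromosome 7, 30899176 to 30914873), averaged 0.452. Among neighbours in this order, Mbp and Ugt8a had ranges that did not overlap, with Mbp higher in 6 of 6 libraries. The other neighbours overlapped: Cnp was above Mbp in 5 of 6 libraries, Ugt8a above Mog in 5, Mog above Cldn11 in 3, Cldn11 above Mobp in 5 and Mobp above Mag in 4.

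The make-up of the myelin transcripts differed between libraries. Of the summed RPKM of the 7 genes, Cnp held 51.8%, 51.5% and 55.1% in vehicle 1, 2 and 3 against 47.4%, 35.8% and 28.6% in NGPF2 1, 2 and 3. Ugt8a held 9.09%, 2.90% and 4.98% and then 11.2%, 14.1% and 14.6%. Cnp thus held its lowest shares in NGPF2 2 and 3, where Ugt8a held its highest. Mobp held 1.30% and 1.36% in the libraries of replicate 1 and 4.70% to 6.80% in the other 4. The 7 genes summed to 1645, 2559 and 2146 normalized counts with vehicle and to 1604, 1748 and 1683 with NGPF2.

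**Figure D1:**
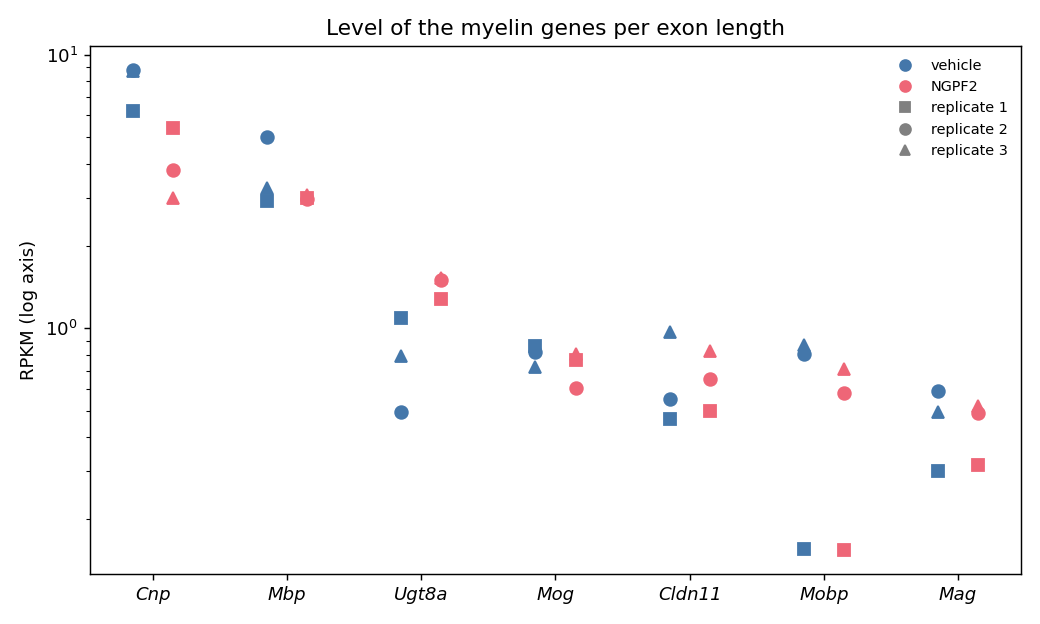
Level of the 7 myelin genes per exon length (RPKM, log axis), ordered by their mean over 6 libraries, with colour for the group and shape for the replicate. Cnp and Mbp lie highest, and Mobp falls into a low pair at 0.157 and 0.155 RPKM (replicate 1) and 4 libraries from 0.582 to 0.871.

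The promoters of the 3 members whose levels differed most (Mobp between batches, Cnp and Ugt8a between groups) are shown upstream of the first annotated exon, from RefSeq on GRCm38.p6, the same build as mm10, 5′ to 3′ on the strand of the gene. Capitals mark ACAAAG, a core recognised by SOX proteins, on either strand (CTTTGT on the strand shown).
Mobp: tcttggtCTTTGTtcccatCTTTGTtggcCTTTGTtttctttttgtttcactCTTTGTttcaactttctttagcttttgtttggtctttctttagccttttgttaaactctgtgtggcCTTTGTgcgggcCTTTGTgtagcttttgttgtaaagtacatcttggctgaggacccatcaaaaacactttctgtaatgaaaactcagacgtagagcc
Cnp: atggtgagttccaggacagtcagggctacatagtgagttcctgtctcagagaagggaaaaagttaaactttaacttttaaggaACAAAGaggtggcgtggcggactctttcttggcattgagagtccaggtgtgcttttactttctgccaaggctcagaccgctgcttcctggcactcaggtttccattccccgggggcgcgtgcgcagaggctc
Ugt8a: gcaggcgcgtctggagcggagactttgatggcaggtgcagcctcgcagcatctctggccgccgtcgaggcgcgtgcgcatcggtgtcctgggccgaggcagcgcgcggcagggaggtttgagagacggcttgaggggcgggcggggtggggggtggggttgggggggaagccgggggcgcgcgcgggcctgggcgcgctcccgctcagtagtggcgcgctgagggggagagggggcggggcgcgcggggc
They lie at chr9:120149492-120149706 (plus strand), chr11:100574689-100574903 (plus strand) and chr3:125938653-125938902 (minus strand). Mobp held ACAAAG 6 times, spread over a T-rich stretch, Cnp held it 1 time and Ugt8a did not hold it. Of 32851 RefSeq windows of 300 bases, 18.7% held ACAAAG at least 1 time and 3 windows at least 5 times. Windows of 6 members were searched. Of these, Mag had 1 match in 2 of its 3 windows, and those of Mog and Cldn11 had none. The related ACAATG (12.6% of windows) and the E-boxes CAGCTG (16.3%) and CAGATG (17.2%), cores of the kind bound by OLIG proteins, were in none of the members' windows, so no motif overlapped another. A match describes letters and not binding.

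Cnp was lower with NGPF2 in all pairs, by little in pair 1 and by over 2-fold in pairs 2 and 3. It held 654, 941 and 920 normalized counts in vehicle 1, 2 and 3 against 569, 446 and 341 in NGPF2 1, 2 and 3 (838 ± 160 against 452 ± 114, SD, n = 3 each). The 3 NGPF2 libraries lay below the 3 vehicle libraries without overlap, as they did for 5.89% of all genes tested, and the vehicle library closest to NGPF2 was vehicle 1. The log2 differences of the normalized count plus 1 were -0.20, -1.08 and -1.43 in pairs 1, 2 and 3. Over the 3 pairs the difference was -0.90 (SE 0.25, adjusted p = 0.379, limma), and it did not pass. Within replicates 2 and 3, with 2 libraries per group, Cnp fell 2.38-fold (log2 -1.25, SE 0.15, 95% interval -1.64 to -0.86, adjusted p = 0.00797, limma). That call was lost without vehicle 2 (log2 -1.24, adjusted p = 0.154) and without vehicle 3 (log2 -1.27, adjusted p = 0.151), as were the calls of all other genes, since 0 genes passed in either. It was also lost with no filter on low counts (adjusted p = 0.0908). Over the alternatives its adjusted p ran from 0.00232 to 0.154.

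The exons of Cnp cover 3639 bases, of which 154 are shared with Dnajc7 on the opposite strand, and the strand setting of the counting is not given in the sources used here. Dnajc7, a chaperone cofactor, stood at 5399 and 5249 normalized counts in vehicle 2 and 3 against 6175 and 6669 in NGPF2 2 and 3. The fall of Cnp in replicates 2 and 3 stood beside the lower astrocyte and precursor sums given above. Microglia markers (9 of 12 kept lower, median log2 difference -2.28) and fibroblast and mural cell markers (4 of 10 lower, 1 higher, median -1.99) were lower in the same libraries, and neuron markers (7 of 12 higher, median 0.41) were higher. The part of these lists in the results for Cnp and Ugt8a was not tested.

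Ugt8a was higher with NGPF2 in all pairs. It held 143, 66.1 and 104 normalized counts in vehicle 1, 2 and 3 against 168, 220 and 217 in NGPF2 1, 2 and 3 (104 ± 38.5 against 202 ± 29.1, SD, n = 3 each). The groups did not overlap, as was so in this direction for 4.11% of all genes tested, and the libraries of replicate 1 were the closest to each other. The log2 differences were 0.23, 1.72 and 1.06 in pairs 1, 2 and 3. Over the 3 pairs the difference was 1.00 (SE 0.32, adjusted p = 0.379, limma), and it did not pass. Within replicates 2 and 3 Ugt8a rose 2.62-fold (log2 1.39, SE 0.26, 95% interval 0.73 to 2.05, adjusted p = 0.0233, limma). The call was lost when any of these 4 libraries was left out, at log2 1.07 and adjusted p = 0.154 without vehicle 2, 1.71 and adjusted p = 0.138 without vehicle 3, 1.38 and adjusted p = 0.0773 without NGPF2 2, and 1.40 and adjusted p = 0.0689 without NGPF2 3. It was also lost with no filter (adjusted p = 0.153) and without the mean-variance trend (adjusted p = 0.0663), and over the alternatives the adjusted p ran from 0.0102 to 0.154.

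**Figure D2:**
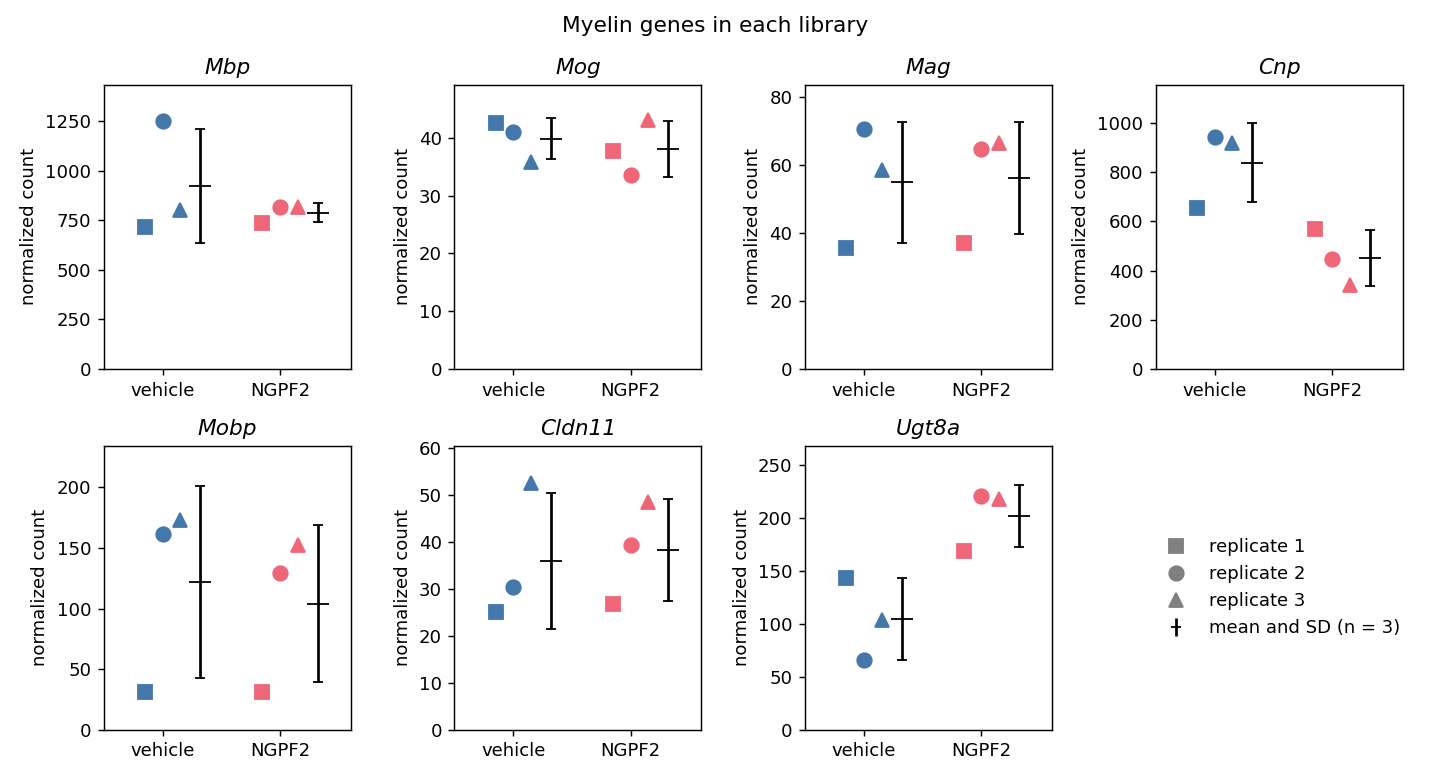
Normalized counts of the 7 myelin genes in each library (linear axes from 0), with the replicate as shape, the group as colour and the mean and SD (n = 3) as bars. NGPF2 and vehicle do not overlap for Cnp (341 to 569 against 654 to 941) and Ugt8a (168 to 220 against 66.1 to 143), and overlap for the other 5 genes.

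The other 5 myelin genes did not pass in any comparison of NGPF2 with vehicle, and their groups overlapped. Mbp held 714, 1248 and 803 normalized counts in vehicle 1, 2 and 3 against 734, 815 and 815 in NGPF2 1, 2 and 3, so that vehicle 2 alone stood high. Its log2 differences were 0.04, -0.61 and 0.02 in pairs 1, 2 and 3. Within replicates 2 and 3 the difference was -0.30 (95% interval -0.84 to 0.25, adjusted p = 0.373, limma), and without vehicle 2 it was 0.02.

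Mobp held 31.0, 162 and 173 normalized counts with vehicle and 30.7, 129 and 153 with NGPF2. NGPF2 2 and 3 lay just below vehicle 2 and 3, as for 32.7% of genes, while the libraries of replicate 1 held nearly the same count. The difference within replicates 2 and 3 was -0.25 (95% interval -0.69 to 0.19, adjusted p = 0.353, limma). Mag held 35.5, 70.6 and 58.4 with vehicle and 37.1, 64.6 and 66.4 with NGPF2, with a difference of 0.03 within replicates 2 and 3 (95% interval -0.56 to 0.62, adjusted p = 0.945, limma). Its 2 libraries of replicate 1 were the lowest in either group. The signs of the differences of Mobp and Mog changed with quantile scaling (0.03 and 0.38), and that of Mag with scaling to library totals (-0.10).

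Mog and Cldn11 rested on the fewest reads. Mog held 42.6, 41.1 and 35.8 normalized counts with vehicle and 37.7, 33.5 and 43.1 with NGPF2, the narrowest range of the members (log2 range 0.35). In NGPF2 3 these were 24 reads (95% Poisson interval 15.4 to 35.7, counting error only). Its difference within replicates 2 and 3 was -0.01 (95% interval -0.76 to 0.74, adjusted p = 0.981, limma). Cldn11 held 25.1, 30.4 and 52.5 with vehicle and 26.9, 39.5 and 48.5 with NGPF2, from 27 to 44 reads per library, and replicate 3 was the highest in both groups. Its difference was 0.13 (95% interval -0.80 to 1.05, adjusted p = 0.829, limma).

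Read as a set, 1 of the 7 members passed as higher and 1 as lower in replicates 2 and 3, where 9.77% and 11.3% of 16653 genes did (21.1% in either direction). With scaling to library totals, which moved the median of all genes by -0.13, 982 genes rose and 2664 fell, against 1627 and 1884 here, and both members kept their calls. By overlap alone, Cnp and Mobp were lower in both NGPF2 libraries of replicates 2 and 3 than in both vehicle libraries (32.7% of genes) and Ugt8a was higher (32.3%). The median log2 difference of the 7 was -0.01, beside -0.00265 over all genes tested. In pairs 1, 2 and 3 the median of the members was 0.04, -0.29 and 0.02. Over the 3 pairs 0 of 7 passed, as did 0% of all genes with limma, where 2166 genes had an unadjusted p under 0.05, among them Cnp and Ugt8a. With voom on the recovered counts 0 genes passed too. Whether the effect of NGPF2 differed between replicates 2 and 3 and replicate 1 was tested directly. 0 of 7 members passed that test, where 2.49% of genes did (0.721% higher, 1.77% lower). The closest were Cnp (log2 -1.05, SE 0.26, unadjusted p = 0.0103, adjusted p = 0.118, limma) and Ugt8a (log2 1.16, SE 0.44, unadjusted p = 0.0473, adjusted p = 0.239, limma). With voom Cnp did pass (adjusted p = 0.0384), and over the alternatives its adjusted p ran from 0.0384 to 0.431. Replicate 1 has 1 library per group, so its spread is taken to be that between replicates 2 and 3.

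**Figure D3:**
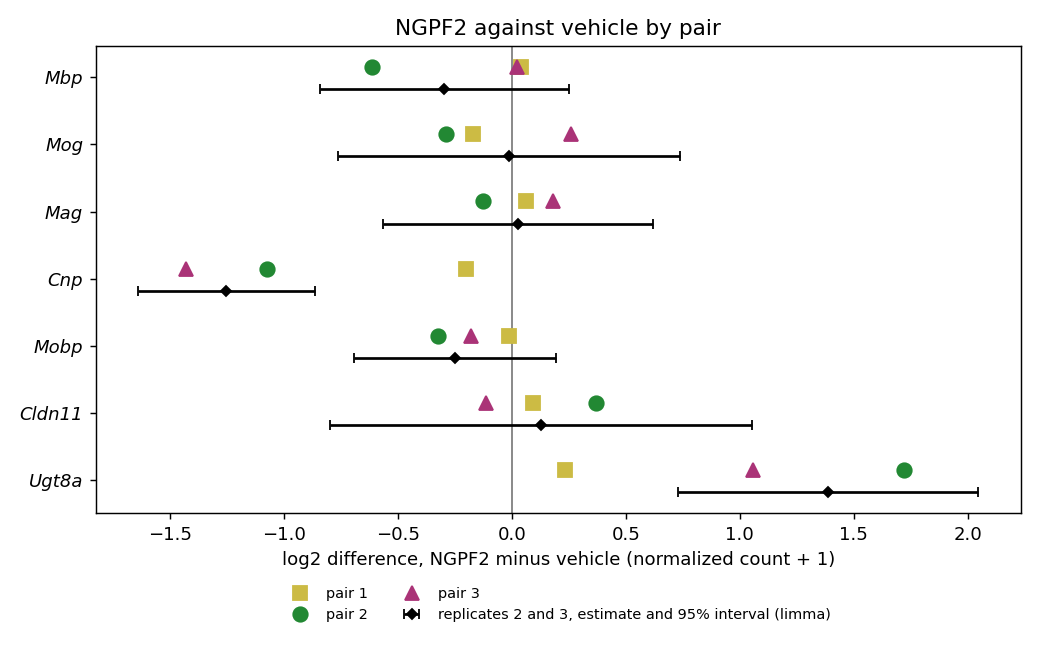
Log2 difference of NGPF2 minus vehicle (normalized count plus 1) for each myelin gene in pairs 1, 2 and 3, with the estimate for replicates 2 and 3 and its 95% interval (limma) in black. The intervals of Cnp (-1.64 to -0.86) and Ugt8a (0.73 to 2.05) leave out 0 and those of the other 5 genes include it.

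The library batches differed most in Mobp. It was at 31.0 normalized counts in vehicle 1 and at 162 and 173 in vehicle 2 and 3, and at 30.7 in NGPF2 1 against 129 and 153 in NGPF2 2 and 3. In either group both libraries of replicates 2 and 3 were far above that of replicate 1. Each batch difference sets 2 libraries against the 1 of replicate 1, which has no spread of its own here and is assumed to vary like the others. With vehicle the difference was 5.26-fold (log2 2.40, SE 0.25, 95% interval 1.75 to 3.04, adjusted p = 0.00609, limma), and with NGPF2 4.46-fold (log2 2.16, SE 0.25, adjusted p = 0.00458, limma). Without vehicle 2 or vehicle 3 these calls were lost, at adjusted p = 0.115 in both cases with vehicle (log2 2.44 and 2.35) and at 0.0514 and 0.0515 with NGPF2 (log2 2.16). With vehicle 19.9% of all genes passed (10.5% higher and 9.42% lower in replicates 2 and 3), and with NGPF2 33.2% did (16.1% higher and 17% lower).

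No other member passed between the batches with limma as set out. Mbp, Mag and Cldn11 were, with Mobp, higher in all 4 libraries of replicates 2 and 3 than in both of replicate 1, which 24.9% of genes were. Mag was higher by 0.84 with vehicle and 0.80 with NGPF2 on the log2 scale (adjusted p = 0.124 and adjusted p = 0.104, limma). Mbp was higher by 0.49 and 0.15 (adjusted p = 0.264 and adjusted p = 0.695), and Cldn11 by 0.65 and 0.68 (adjusted p = 0.387 and adjusted p = 0.310). Mog differed by -0.15 and 0.01. Cnp and Ugt8a went opposite ways in the 2 groups, Cnp by 0.51 with vehicle and -0.54 with NGPF2 (adjusted p = 0.127 and adjusted p = 0.0822) and Ugt8a by -0.78 and 0.38 (adjusted p = 0.153 and adjusted p = 0.401). Some alternatives did call Cnp or Mag. With vehicle Cnp passed with voom (adjusted p = 0.0303) and when NGPF2 2 or NGPF2 3 was left out of the fit (adjusted p = 0.0416 and adjusted p = 0.0400, limma). With NGPF2 Cnp passed as lower with library totals (log2 -0.69) and without NGPF2 2 (-0.74), and Mag as higher with quantile scaling (1.31). The sums of neuron markers were also higher in replicates 2 and 3. With vehicle they were 265316 normalized counts in replicate 1 and 303062 and 305737 in replicates 2 and 3. With NGPF2 they were 259213 and then 403322 and 386025. Single neuron markers went both ways between the batches. Camk2a held 12518 in vehicle 1 against 53272 and 47771 in vehicle 2 and 3. Gad1 held 47717 against 23655 and 25827 in the same libraries, and Tubb3 30308 against 12359 and 13183. The sums of fibroblast and mural cell markers were lower in replicates 2 and 3. They were 4375 and 3930 in vehicle 1 and NGPF2 1, 710 and 636 in vehicle 2 and 3, and only 411 and 433 in NGPF2 2 and 3. Microglia markers summed to 2113 and 2234 in replicate 1, 1187 and 1114 in vehicle 2 and 3, with 395 and 406 in NGPF2 2 and 3. The part of these cell types in the difference of Mobp was not tested.

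**Figure D4:**
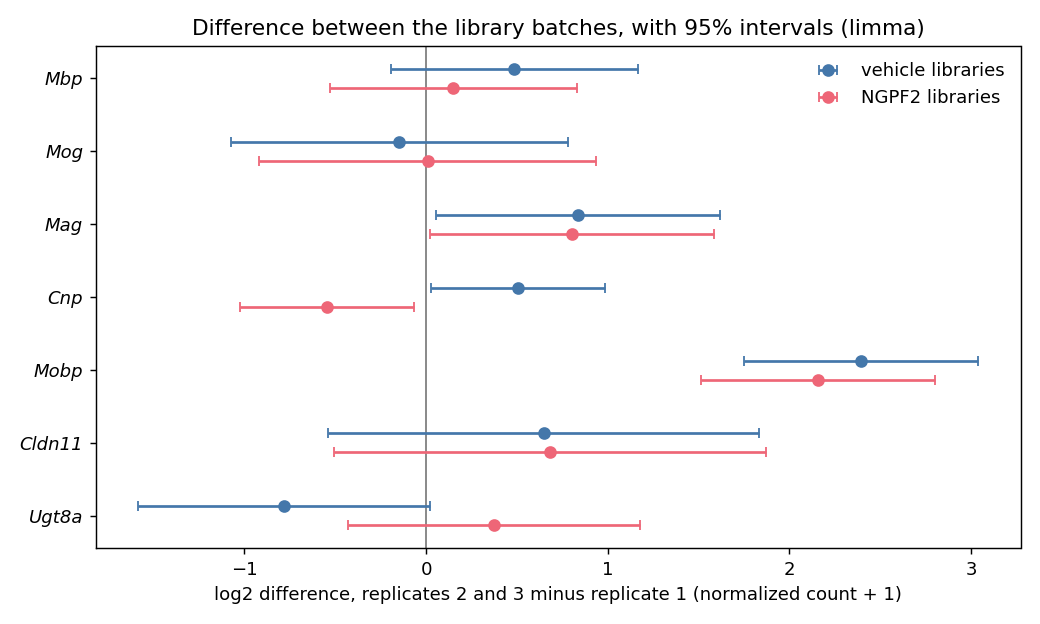
Log2 difference of replicates 2 and 3 minus replicate 1 (normalized count plus 1) for each myelin gene, separately for vehicle and NGPF2 libraries, with 95% intervals (limma). Mobp lies at 2.40 and 2.16, and the estimates of Mog lie at -0.15 and 0.01.

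Profiles over the 6 libraries were compared by the root-mean-square difference of log2 values, each gene centred on its own mean. The members were not close to each other. The nearest member to Mbp was Mog at 0.278, with 17.9% of all other genes nearer, to Mag it was Mbp at 0.291 (15.6% nearer), to Cldn11 it was Mag at 0.319 (13.1%), to Cnp it was Mbp at 0.474 and to Ugt8a it was Mog at 0.644 (39.9%). Mobp was nearest to Mag at 0.706, with 5.19% of genes nearer. Cnp and Ugt8a lay 1.11 apart and Mobp and Ugt8a 1.36, the largest distance among the pairs of members. The distances describe 6 libraries that fall into batches and groups, and genes with few reads carry counting noise.

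Among genes outside the set, those nearest to Cnp were Xrcc2, a recombination repair gene (0.0744), and Sesn2, a stress-induced sestrin (0.0765). Those nearest to Mobp were Egr1, an immediate early transcription factor (0.123), and Ccn3, a secreted matricellular protein (0.130). Egr1 held 1461, 8195 and 8199 normalized counts in vehicle 1, 2 and 3 against 1589, 6920 and 6269 in NGPF2 1, 2 and 3, and so shared with Mobp the low pair of replicate 1. The nearest to Ugt8a were Ccdc116 (0.112) and Socs1, an inhibitor of cytokine signalling (0.139), with Socs1 at 34.8 and 46.5 in vehicle 2 and 3 against 110 and 102 in NGPF2 2 and 3. Close to Mag was Mrpl27, a mitochondrial ribosomal protein (0.0523). Mbp was nearest to Piwil2 (0.0702) and Pla2g3 (0.0723), Mog to Fam169a (0.0424) and Nfatc2ip (0.0492), and Cldn11 to Fbxl22 (0.113) and Phospho2 (0.118).

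The other genes of myelin that passed in replicates 2 and 3 were lower with NGPF2. Of 18 other genes of compact and uncompacted myelin in the table, 14 were kept, 0 rose and 4 fell (limma, against 9.77% higher and 11.3% lower over all genes tested), with a median log2 difference of -0.33 and pair medians of 0.05, -0.44 and -0.28. Among those that fell were Cd9, a tetraspanin shared with astrocytes and other cells (-2.49), Plekhb1 (-1.89) and the tetraspanin Tspan2 (-1.46). None of the 4 calls remained without vehicle 2 or vehicle 3, where 0 genes passed.

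Ugt8a belongs to galactolipid synthesis. Of 13 listed genes of galactolipid and long-chain sphingolipid synthesis and breakdown 12 were kept, and in replicates 2 and 3 0 rose and 4 fell (limma, against 9.77% higher and 11.3% lower over all genes tested), with a median of -0.16 and the other 8 not passing. Those that fell were the elongases Elovl1 (-1.52) and Elovl7 (-1.30), the glycolipid transfer protein Gltp (-1.36) and the ceramide synthase Cers2 (-0.75). Fa2h, which hydroxylates the fatty acids of myelin galactolipids, and Gal3st1, which makes sulfatide from the product of Ugt8a, were low, at 3.59 to 14.3 and 10.7 to 19.8 normalized counts. No call of this list remained without vehicle 2 or vehicle 3, and those of Cers2 and Elovl1 were also lost without NGPF2 2 or NGPF2 3.

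Among 14 transcription factors of myelination 11 were kept, of which 0 rose and 4 fell in replicates 2 and 3 (limma, against 9.77% higher and 11.3% lower over all genes tested), with a median of -0.91. Olig1 held 6065 and 5560 normalized counts in vehicle 2 and 3 against 1033 and 1071 in NGPF2 2 and 3, with 2593 and 2639 in vehicle 1 and NGPF2 1 (log2 -2.46, adjusted p = 0.000613). Olig2 (-2.60), Sox8 (-1.55) and Tcf7l2 (-1.89) fell as well, and 3 of the 14 factors, Olig1, Olig2 and Sox10, are also precursor markers. Neither Sox10 (adjusted p = 0.334) nor Myrf (adjusted p = 0.219) passed with limma. Their log2 differences in pairs 1, 2 and 3 were -0.26, -0.44 and -1.37 for Sox10 and 0.26, -0.26 and -2.43 for Myrf. In NGPF2 3 each rested on 3 reads, so the lack of a call does not show that they were unchanged. Beside the same shares, of 11 kept inhibitors of oligodendrocyte differentiation 1 rose, Lingo1 (0.44), and 3 fell, the receptor Notch1 (-3.07), Gpr37 (-0.82) and the kinase Rock2 (-0.78). These calls too were lost without vehicle 2 or vehicle 3. Quantile scaling ended those of Lingo1 and Gpr37 (adjusted p = 0.0648 and adjusted p = 0.0781), and library totals that of Lingo1 (adjusted p = 0.0738).

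The lists of lineage stages and other cell types below are to be read beside the same shares of all genes in replicates 2 and 3, 9.77% higher and 11.3% lower. Of 12 precursor markers 10 were kept and 5 fell, with a median of -1.12, among them the proteoglycan Cspg4 (-1.86) and Lhfpl3 (-1.34), and Neu4 was at 0 in 5 of 6 libraries. Of 14 markers of newly formed oligodendrocytes 9 were kept, 2 rose (Tmem108, 0.83, and Rras2, 0.74) and 3 fell (Itpr2, -2.81, Tcf7l2, -1.89, and Cnksr3, -1.57). Of 17 markers of mature oligodendrocytes 13 were kept, 1 rose and 8 fell, with a median of -1.13, and 7 of the 17 are also in the list of myelin genes. The 1 that rose was Enpp2, the lysophospholipase autotaxin (1.09), and among those that fell were the lipocalin Apod (-2.73), the iron carrier Trf (-1.91) and the carbonic anhydrase Car2 (-1.64). All 13 kept astrocyte markers of 14 fell, with a median of -2.78, and the 14th, Gjb6, was at 0 in NGPF2 2 and 3. Of 9 Schwann cell markers 7 were kept and 1 fell, Pmp22 (-2.45), a share near that of all genes. Over the 3 pairs 0 genes of these lists passed, and without vehicle 2 or vehicle 3 none passed in replicates 2 and 3.

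**Figure D5:**
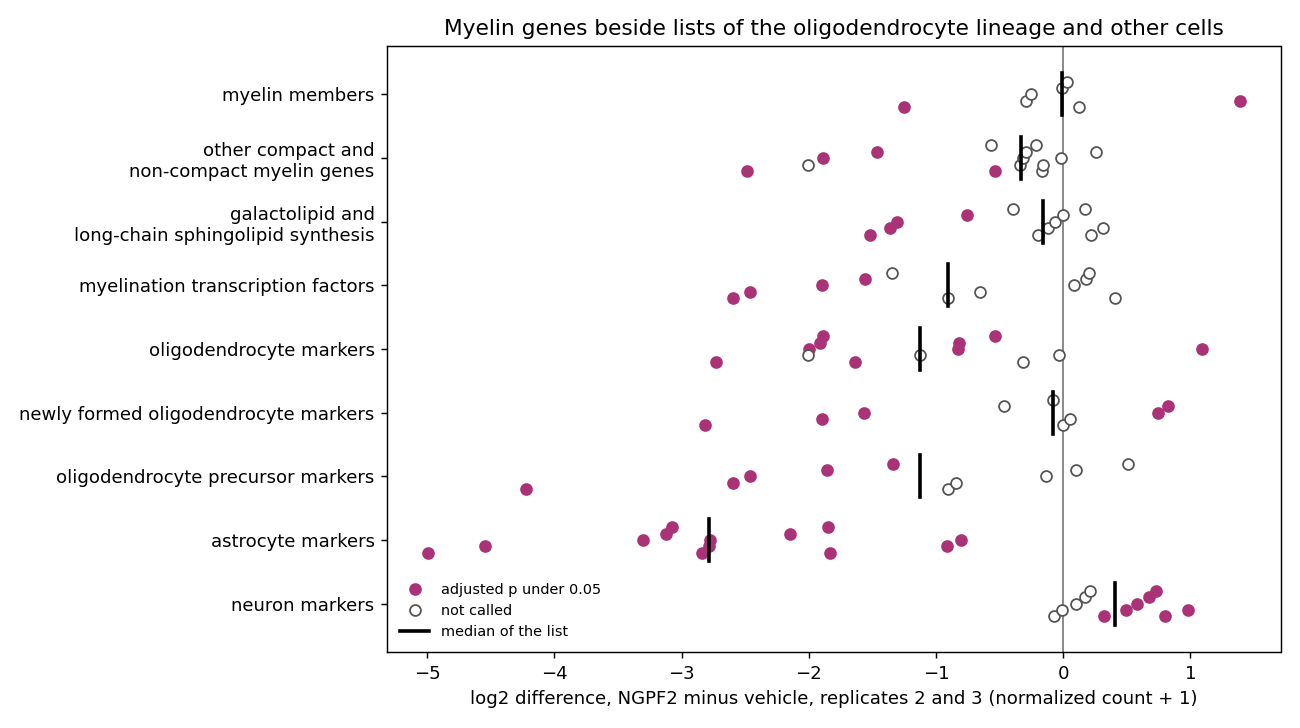
Log2 difference of NGPF2 minus vehicle in replicates 2 and 3 (normalized count plus 1) for the kept genes of 9 lists, 1 point per gene, filled where the adjusted p is under 0.05 (limma), with the median as a bar. The medians are -0.01 for the 7 myelin genes, -1.12 for precursor markers, -2.78 for astrocyte markers and 0.41 for neuron markers.

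Ratios within a library set the members against each other. Scaling by 1 factor per library does not change them, while quantile scaling can. There were 0.219, 0.0702 and 0.113 counts of Ugt8a per count of Cnp in vehicle 1, 2 and 3 against 0.296, 0.493 and 0.637 in NGPF2 1, 2 and 3; that these do not overlap follows from the separate levels of both genes given above. Mobp per Mog was 0.727 and 0.814 in the libraries of replicate 1 and 3.54 to 4.83 in the other 4. Cnp per Mbp was 0.916, 0.754 and 1.15 with vehicle and 0.775, 0.547 and 0.419 with NGPF2, and these overlapped through vehicle 2 and NGPF2 1.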

How the data were processed

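Polyadenylated RNA of 6 cultures was sequenced, per the labels' protocols. FastQC, STAR 2.5, Cuffnorm, DESeq 1.22.1 and mm10 are named in the submitters' processing notes, with no role or order. Which annotation and counting tool were used, and with what strand setting, is not given in the sources used here. Although the deposited table carries FPKM in its name, it holds log2 values, each of a normalized count with 1 added: 100% of the back-transformed values were whole multiples of 1 step per library (tolerance 0.01 of a count), and counts were recovered so. The columns of replicate 1 were assigned by their initial and by elimination, since their digit does not match the titles. That replicates 2 and 3 form 1 batch rests on their library names.

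For tests, limma 3.58.1 (R 4.3.3) was run on the deposited log2 values (mean-variance trend, 2-sided, Benjamini-Hochberg over 16653 genes with a mean of at least 10 normalized counts, threshold 0.05). Fits were NGPF2 against vehicle with the replicate number as a block, the same within replicates 2 and 3 without a block, and treatment by batch. The block rests on the series text, which states pairs. Deviations from group means correlated across genes at r = 0.59, 0.30 and 0.33 for pairs 1, 2 and 3. Crossing replicates 2 and 3 gave 0.34 and 0.32, so the numbers alone do not set these 2 pairs apart. These deviations also hold the difference of replicate 1 from the others. With replicates 2 and 3 alone, their difference in vehicle and their difference in NGPF2 correlated at r = -0.015. The p-values within replicates 2 and 3 take these as independent experiments. The fits were tested on simulated data. GENCODE M21, also on mm10, gave lengths and positions, and symbols were found for 31185 identifiers. Members and gene lists were chosen with earlier results of these data known. Besides the members, the rule allowed the 2 genes nearest to each member, the 4 genes in a list with the smallest p, and any list gene called in replicates 2 and 3. Other list genes given by their level alone, and Dnajc7, which overlaps Cnp, were chosen after their values were seen. A few genes that the rule allows are not reported here. Alternatives covered pseudocount, filter, scaling, voom, the variance trend, the block and leaving out libraries. matplotlib 3.10.9 (Python 3.11.15) drew the figures.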

Additional observations from a re-analysis of the deposited data

How the results depend on the processing

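Over the 3 pairs, where 0 genes passed with limma, 1 passed with a pseudocount of 5, 1 with no replicate block and 1 with the batch as block, and leaving out 1 pair gave 0 to 3275 genes, the latter without replicate 1. Within replicates 2 and 3 the 3511 genes became 3275 with the replicate block, 1074 with no filter and 1535 without the mean-variance trend, and leaving out 1 library gave 0 to 3206, with 0 without vehicle 2 and 0 without vehicle 3. With the block Cnp (adjusted p = 0.00283) and Ugt8a (adjusted p = 0.0129) kept their calls. The 415 genes whose NGPF2 effect differed between batches became 4684 with no filter, 733 at a mean of at least 50, 1472 with voom and 22 without the trend, and 0 to 412 with 1 library left out. The batch differences gave 5036 genes with voom and 1232 without the trend for vehicle (3322 as reported, 0 to 3898 with 1 library left out), and 3598 without the trend for NGPF2 (5521, and 1365 to 5487). The cause of these changes was not tested.

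Members that did not pass changed sign in some settings, with these log2 differences. Over the 3 pairs Mog was 0.18 and Mobp was 0.013 with quantile scaling, Mag was -0.044 with library total scaling. Leaving out 1 pair gave values over the 3 pairs from -0.30 to 0.031 for Mbp, from -0.23 to 0.046 for Mog, from -0.011 to 0.23 for Cldn11, from -0.032 to 0.12 for Mag. Within replicates 2 and 3 Mog was 0.38 and Mobp was 0.034 with quantile scaling, Mag was -0.10 with library total scaling, Mag was -0.013 with voom. Leaving out 1 library gave values within replicates 2 and 3 from -0.61 to 0.022 for Mbp, from -0.19 to 0.16 for Mog, from -0.26 to 0.51 for Cldn11, from -0.11 to 0.16 for Mag. In the difference between batches Mag was 0.39 and Mobp was 0.061 with quantile scaling, Cldn11 was -0.087 with library total scaling. Leaving out 1 library gave values in the difference between batches from -0.17 to 0.10 for Mag, from -0.35 to 0.42 for Cldn11, from -0.021 to 0.33 for Mog. Between batches with NGPF2 Mog was -0.13 with library total scaling. Leaving out 1 library gave values between batches with NGPF2 from -0.17 to 0.19 for Mog. Mog and Cldn11 rested on the fewest reads of the members summed over libraries, with 24 in Mog of NGPF2 3.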
